A study of Homo sapiens with 6 samples.

Results

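The splicing kinases described here were the 4 CDC-like kinases CLK1, CLK2, CLK3 and CLK4, the SR protein kinases SRPK1 and SRPK2, and the DYRK1 kinases DYRK1A and DYRK1B. They were chosen by gene symbol as kinases that phosphorylate SR proteins or whose own transcripts retain introns. The deposited table held all 8 among its 61806 genes, and all 8 were among the 15870 genes tested. RNA sequencing of U87-MG, a glioblastoma cell line of human origin, gave 6 libraries that were made to look for genes downstream of the glutamate receptor subunit GRIK1. Of these, 3 were negative controls (NC, genotype wildtype) and 3 were labelled GRIK1 siRNA (genotype GRIK1 knockdown). The labels number each group from 1 to 3 and do not say whether the numbers are separate cultures or different siRNA sequences, and the series description names an shRNA instead. Of 3 siRNA sequences the study's text says that siRNA1 was carried forward, but the labels do not tie it to these libraries. The p-values below therefore measure the spread between these libraries, which may be technical.

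SR proteins are splicing factors whose tails of alternating arginines and serines are switched by phosphorylation. SRPK1 and SRPK2 act mostly in the cytoplasm, where phosphorylation of the tail lets the nuclear importer TNPO3 carry SR proteins into the nucleus, and the CLKs add further phosphates in the nucleus and release SR proteins from speckles. CLK1 and CLK4 transcripts are known to be stored in the nucleus with introns beside exon 4 still in place, and splicing of these introns makes productive mRNA. DYRK1A and DYRK1B are related kinases that phosphorylate splicing factors, D-type cyclins and LIN52 of the DREAM complex, which represses cell cycle genes.

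Exon 4 is shown because a CLK1 transcript that skips it is known to lack the kinase domain. GENCODE 29 (GRCh38) lists a transcript that skips exon 4 for each of the 4 CLKs, and the exon length is not a multiple of 3 in any of them. CLK1 exon 4 lies in the coding sequence at chr2:200860125-200860215 (minus strand), CLK2 exon 4 at chr1:155268708-155268792 (minus strand), CLK3 exon 4 at chr15:74622120-74622216 (plus strand) and CLK4 exon 4 at chr5:178617344-178617434 (minus strand). CLK1 and CLK4 shared 85 of 91 bases here (93.4%), so reads from this stretch can be hard to assign to 1 of the pair, and how such reads were counted is not given in the sources used here.
CLK1 exon 4: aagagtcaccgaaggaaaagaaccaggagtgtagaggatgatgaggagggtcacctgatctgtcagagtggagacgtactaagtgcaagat
CLK4 exon 4: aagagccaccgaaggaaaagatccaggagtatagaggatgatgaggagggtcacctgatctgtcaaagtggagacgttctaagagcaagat
CLK2 exon 4: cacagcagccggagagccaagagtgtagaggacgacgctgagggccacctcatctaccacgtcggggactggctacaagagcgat
CLK3 exon 4: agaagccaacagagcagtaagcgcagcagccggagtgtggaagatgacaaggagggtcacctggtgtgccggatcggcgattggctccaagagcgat

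Intron 4, which follows this exon, was kept in at least 1 annotated transcript of each CLK. It was 378 bases long in CLK1, 348 in CLK2, 277 in CLK3 and 395 in CLK4. Intron 3 was kept in an annotated transcript of CLK1, CLK3 and CLK4, with 1022, 1894 and 1121 bases. The start of intron 4, with its first GT in capitals after the last 3 exon bases, read the same in CLK1 and CLK4 over these 9 bases.
CLK1 intron 4 start: gatGTatag
CLK4 intron 4 start: gatGTatag
CLK2 intron 4 start: gatGTacaa
CLK3 intron 4 start: gatGTacag

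The CLKs are also called LAMMER kinases after a stretch of their catalytic domain, whose codons are compared here between the 4 genes. So short a stretch does not rank the whole coding sequences by likeness. In capitals are the 18 bases that encode that stretch, at chr2:200854657-200854674 in CLK1, chr1:155264262-155264279 in CLK2, chr15:74628625-74628642 in CLK3 and chr5:178605344-178605361 in CLK4. Of these 18 bases, CLK2 had 16 in common with CLK1, CLK4 had 14 and CLK3 had 12. The codons of CLK2 and CLK4 encode the same residues here as those of CLK1, and those of CLK3 differ in 2 residues.
CLK1 codons: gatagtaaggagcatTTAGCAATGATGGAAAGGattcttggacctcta
CLK2 codons: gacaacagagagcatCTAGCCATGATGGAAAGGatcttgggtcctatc
CLK3 codons: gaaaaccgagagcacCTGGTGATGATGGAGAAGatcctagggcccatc
CLK4 codons: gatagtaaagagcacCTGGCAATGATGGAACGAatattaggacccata

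Transcripts of the retained intron class were annotated for 7 of the 8 kinases, CLK2 being the exception. Intron retention was a reason for choosing kinases, so nothing is read from this count. They made up 8 of 15 transcripts of CLK1, 7 of 15 of CLK4, 8 of 27 of CLK3, 4 of 13 of SRPK1, 4 of 24 of DYRK1A, 2 of 15 of SRPK2 and 1 of 8 of DYRK1B. The deposited counts are 1 number per gene. Of the exonic bases that GENCODE 29 annotates for a gene, 62.6% in CLK1 and 66.8% in CLK4 lay inside introns of the principal coding transcript, against 8.93% in DYRK1B. A count on CLK1 or CLK4 can therefore hold spliced and intron-retaining RNA, and these forms cannot be told apart here.

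The targeted gene was examined first. In NC libraries 1, 2 and 3 GRIK1 had 18, 9 and 8 counts, and the GRIK1 siRNA-labelled libraries had 15, 20 and 20. FPKM is the count scaled to the library total and to the exonic length, and as log2(FPKM + 1) GRIK1 was 0.12 higher in the latter (two-sided exact permutation test, p = 0.4), and the smallest p that 3 libraries against 3 allow is 0.1. GRIK1 lay between 0.13 and 0.38 FPKM, under the mean of 0.5 FPKM asked of tested genes. No lower level of the target was thus seen, but counts this low can hardly show a knockdown. The paper states that GRIK1 was knocked down efficiently in U87-MG cells, from measurements other than these libraries. The group is named only by its label throughout.

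Total counts were between 11099909 and 14006968 per library. NC library 3 stood apart: across the tested genes its log2 CPM correlated at 0.964 and 0.968 with the other NC libraries, which correlated at 0.990 with each other, and the common dispersion of edgeR went from 0.0391 to 0.00298 without it. These correlations are across genes, which are not independent replicates. Each kinase is therefore given with and without NC library 3. Among glioma markers, VIM (825 to 1076 FPKM), CD44 (50.8 to 71.6 FPKM) and EGFR (6.63 to 16.45 FPKM) were present, while GFAP, NES, S100B, SOX2 and PTPRZ1 were at or below 0.69 FPKM in every library. The 12 markers of other cell types summed to between 4.91 and 7.05 FPKM in the NC libraries, against between 7.28 and 7.64 FPKM in the GRIK1 siRNA-labelled libraries. CD68, EPCAM and SNAP25 made up most of that sum, the immune marker AIF1 was at 0 throughout, and PTPRC, PECAM1, VWF and KRT5 were at or below 0.05 FPKM. The part of these markers in the results was not tested.

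In the test over all 6 libraries, none of the 8 kinases passed an adjusted p of 0.05 (edgeR quasi-likelihood test, Benjamini-Hochberg), where 3.09% of all tested genes did. At an unadjusted p under 0.05 there was 1 kinase, CLK1, against 25.1% of all tested genes. In bulk RNA, fewer cells that express a kinase and less of its RNA per cell cannot be told apart. DESeq2 also called 0 of 8, against 11.4% of the genes to which it gave an adjusted p. With limma-trend 0 of 8 were called, against 407 of the 15870 tested genes on log2(FPKM + 1) and 280 on log2(FPKM + 0.1). Each had 1 kinase at an unadjusted p under 0.05, against 3978 genes with DESeq2 and 3883 and 3739 with limma-trend. The median log2 fold change of the 8 kinases was 0.10, from -0.22 for DYRK1B to 0.35 for CLK2, against -0.017 over all tested genes. With NC library 3 left out, 2 of the 8 passed the edgeR test, CLK1 higher and DYRK1B lower, where 35.2% of all tested genes did.

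**Figure D1:**
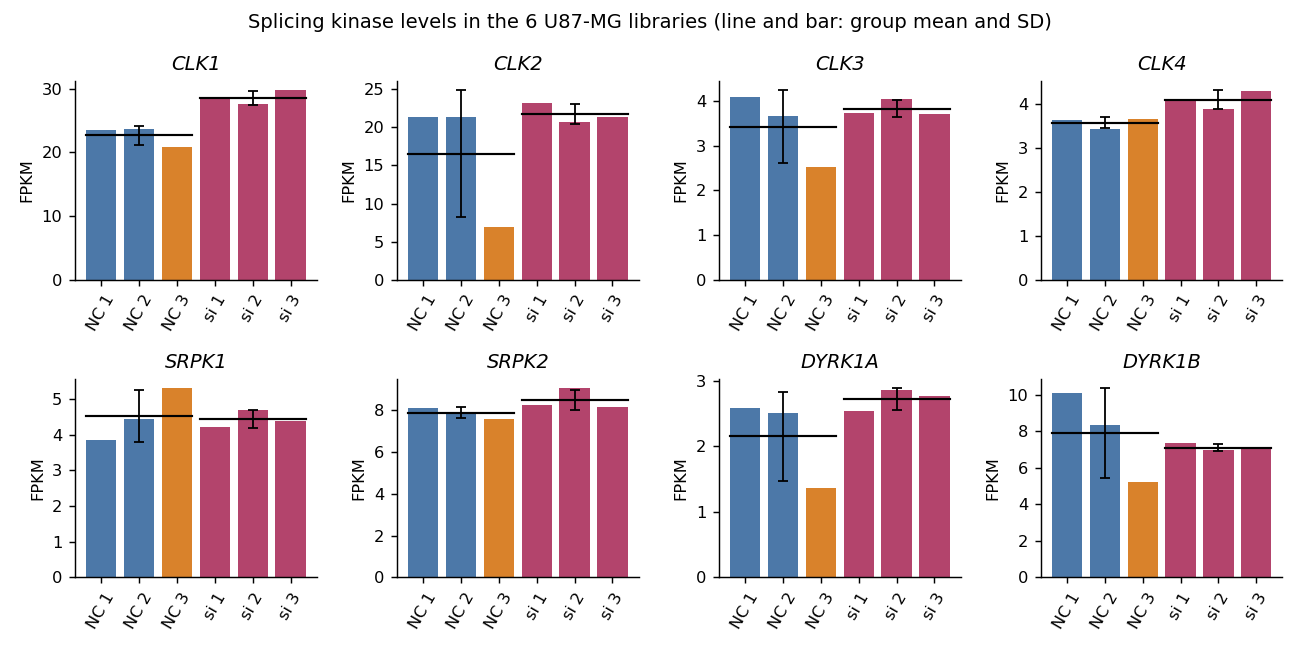
FPKM of each kinase in the 6 libraries, with the 3 NC libraries on the left of each panel (NC library 3 in orange) and the 3 GRIK1 siRNA-labelled libraries (si) on the right, and with the mean and SD of each group as a line and error bar. CLK2 stands at 6.89 FPKM in NC library 3 and between 20.68 and 23.22 FPKM in the other 5, while CLK1, CLK4 and SRPK2 are higher in each GRIK1 siRNA-labelled library than in any NC library on this scale.

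CLK1, a nuclear kinase that phosphorylates SR proteins and is itself subject to intron retention, had the highest level per length of the 8. The gene (ENSG00000013441) spans 200853009 to 200864691 on the minus strand of chromosome 2 in GRCh38. Its level, as counts per TMM-scaled library total (normalised CPM), was 119, 121 and 120 normalised CPM in NC libraries 1, 2 and 3, against 141, 137 and 149 normalised CPM in the GRIK1 siRNA-labelled libraries. The 3 NC libraries lay close together on this scale, NC library 3 included, and each GRIK1 siRNA-labelled library lay above all of them. The group means were 120 ± 1.08 and 142 ± 5.72 normalised CPM (SD, n = 3 each), a 1.19-fold difference. On the log2 scale the difference was 0.25 (SE 0.11, 95% interval 0.0042 to 0.49, adjusted p = 0.193 from edgeR). Without NC library 3 it was again 0.25, with a smaller error (SE 0.053, 95% interval 0.14 to 0.37, adjusted p = 0.00119 from edgeR), and CLK1 rose in that comparison. CLK1 was the only kinase of the 8 whose groups of 3 did not overlap in normalised CPM, a separation seen for 38.5% of all tested genes. In FPKM, which carries no TMM factor, there were 3 of 8, CLK1, CLK4 and SRPK2, each higher with the GRIK1 siRNA label, against 38.3% of all tested genes. CLK1 was at 23.45, 23.61 and 20.87 FPKM in the NC libraries, against 28.39, 27.56 and 29.69 FPKM in the others.

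CLK4, the closest paralog of CLK1, had a lower level. It lies on chromosome 5 from 178602664 to 178630615, minus strand (ENSG00000113240). It stood at 28.5, 27.2 and 32.7 normalised CPM in the NC libraries, against 31.8, 30.0 and 33.3 normalised CPM in the GRIK1 siRNA-labelled libraries. On this scale the groups overlapped because NC library 3 lay among the GRIK1 siRNA-labelled libraries, while NC libraries 1 and 2 lay below all 3 of them. In FPKM they did not overlap, with NC at 3.64, 3.44 and 3.67 and the others at 4.13, 3.89 and 4.30 FPKM. Its log2 fold change was 0.11 (SE 0.13, adjusted p = 0.621 from edgeR) and 0.19 without NC library 3 (SE 0.091, 95% interval -0.0027 to 0.38, adjusted p = 0.120). With that library left out, the groups did not overlap in normalised CPM for 3 of the 8 kinases, CLK1 and CLK4 higher and DYRK1B lower, against 56.5% of all tested genes. In FPKM SRPK2 joined them, which made 4 of 8, against 56.4% of all tested genes.

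CLK2, whose kinase domain resembles that of CLK1 and which also acts on SR proteins, was the kinase that differed most in NC library 3. The gene (ENSG00000176444) spans 155262868 to 155278491 on the minus strand of chromosome 1 in GRCh38. Its level was 77.1, 77.8 and 28.4 normalised CPM in NC libraries 1, 2 and 3, against 82.6, 73.7 and 76.6 normalised CPM in the GRIK1 siRNA-labelled libraries. NC library 3 held 36.7% of the mean of the other NC libraries, and the remaining 5 libraries overlapped. The log2 fold change of CLK2 was the largest of the 8 in size, at 0.35, and had the widest interval (SE 0.34, 95% interval -0.45 to 1.15, adjusted p = 0.546 from edgeR). It was 0.0052 without NC library 3 (95% interval -0.13 to 0.14, adjusted p = 0.961).

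CLK3, the remaining CLK, was likewise lowest in NC library 3. It lies on chromosome 15 from 74598500 to 74645414, plus strand (ENSG00000179335). Levels of CLK3 were 79.6, 71.9 and 55.7 normalised CPM in the NC libraries, against 71.5, 77.8 and 71.3 normalised CPM in the others. NC library 3 was the lowest of the 6 at 73.5% of the mean of NC libraries 1 and 2, and the other 5 overlapped. The difference was 0.091 on the log2 scale (SE 0.15, adjusted p = 0.731 from edgeR), and its sign turned without NC library 3, to -0.041 (95% interval -0.18 to 0.10, adjusted p = 0.681).

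SRPK1, one of the cytoplasmic kinases that load SR proteins with phosphate, was the 1 kinase that stood highest in NC library 3. The gene (ENSG00000096063) spans 35832966 to 35921342 on the minus strand of chromosome 6 in GRCh38. It was at 25.5, 29.6 and 40.0 normalised CPM in the NC libraries, against 27.5, 30.6 and 28.6 normalised CPM in the GRIK1 siRNA-labelled libraries. The NC values alone covered the whole range of the other group. SRPK1 had a log2 fold change of -0.13 (SE 0.18, adjusted p = 0.662 from edgeR), which turned to 0.071 without NC library 3 (95% interval -0.14 to 0.28, adjusted p = 0.621).

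SRPK2, the paralog of SRPK1, varied little between libraries. It lies on chromosome 7 from 105110704 to 105399308, minus strand (ENSG00000135250). Its 6 values ran from 50.4 to 56.1 normalised CPM, with NC at 51.0, 50.4 and 54.5 and the GRIK1 siRNA-labelled libraries at 51.1, 56.1 and 50.9. The groups overlapped on this scale. In FPKM they did not, with NC at 8.11, 7.92 and 7.60 FPKM and the GRIK1 siRNA-labelled libraries at 8.26, 9.05 and 8.17 FPKM. Its log2 fold change was 0.020 (SE 0.11, 95% interval -0.24 to 0.28, adjusted p = 0.924 from edgeR) and 0.058 without NC library 3 (95% interval -0.095 to 0.21, adjusted p = 0.586).

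DYRK1A, a kinase whose dosage matters in Down syndrome because the gene lies on chromosome 21, was also low in NC library 3. The gene (ENSG00000157540) spans 37365573 to 37526358 on the plus strand of chromosome 21 in GRCh38. It stood at 68.3, 67.0 and 41.3 normalised CPM in the NC libraries, against 66.2, 74.5 and 72.6 normalised CPM in the GRIK1 siRNA-labelled libraries. Apart from NC library 3, at 61.1% of the other NC libraries, the values overlapped. The log2 fold change was 0.27 (SE 0.20, 95% interval -0.19 to 0.74, adjusted p = 0.413 from edgeR) and 0.074 without that library (95% interval -0.066 to 0.21, adjusted p = 0.426).

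DYRK1B, the paralog of DYRK1A, linked to cell cycle exit and survival of quiescent cells, was the only kinase of the 8 with each GRIK1 siRNA-labelled library below both NC libraries 1 and 2. It lies on chromosome 19 from 39825350 to 39834201, minus strand (ENSG00000105204). Counts gave 31.8, 26.7 and 18.7 normalised CPM in NC libraries 1, 2 and 3, against 22.8, 21.7 and 21.9 normalised CPM in the others. NC libraries 1 and 2 lay above and NC library 3 below all 3 GRIK1 siRNA-labelled libraries, so the NC group surrounded the other. Over all 6 libraries the log2 fold change was -0.22 (SE 0.20, 95% interval -0.67 to 0.24, adjusted p = 0.508 from edgeR). In the comparison without NC library 3 DYRK1B fell by 0.40 on the log2 scale (SE 0.10, 95% interval -0.61 to -0.19, adjusted p = 0.00488 from edgeR), and without NC library 1 instead the value was -0.033 (adjusted p = 0.917).

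**Figure D2:**
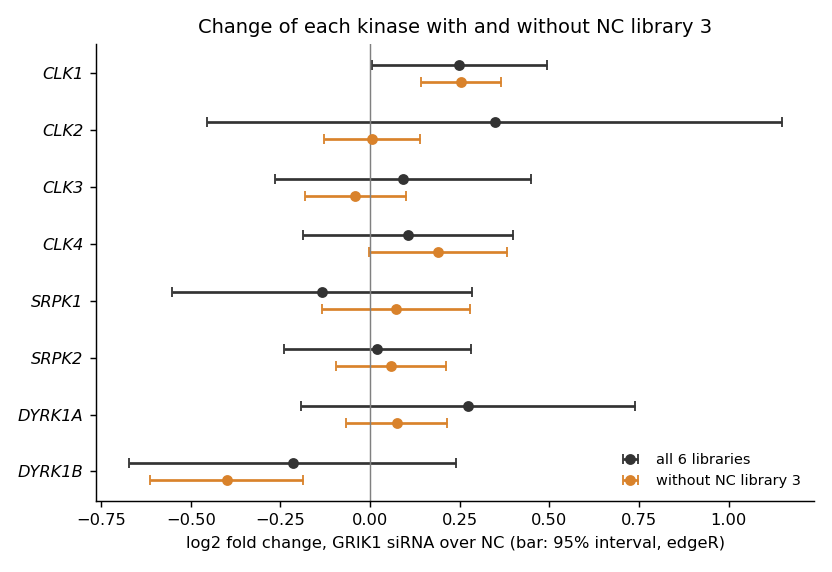
Log2 fold change of each kinase between the GRIK1 siRNA-labelled libraries and NC, with its 95% interval from edgeR, over all 6 libraries (black) and without NC library 3 (orange). The intervals of CLK1 and DYRK1B lie off 0 without NC library 3, at 0.25 and -0.40, and the interval of CLK2 goes from -0.45 to 1.15 with it.

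In normalised CPM, NC library 3 was the lowest of the 6 libraries for 4 of the 8 kinases, CLK2, CLK3, DYRK1A and DYRK1B, where 35.8% of all tested genes had their lowest value there. It was the highest for 1 of 8, SRPK1, against 35.5% of all tested genes. On this scale CLK1 was at 101% and CLK4 at 118% of the mean of NC libraries 1 and 2. In FPKM NC library 3 was the lowest for 6 of the 8 kinases, now with CLK1 and SRPK2, against 44.4% of all tested genes, and CLK1 was there at 88.7%, SRPK2 at 94.8% and CLK4 at 104% of the mean of NC libraries 1 and 2.

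Ratios of kinases within a library do not depend on the scaling between libraries, so 5 pairs were compared with two-sided exact permutation tests on log2 ratios of FPKM, adjusted over the 5. The ratio of DYRK1A to DYRK1B was 0.256, 0.300 and 0.263 in NC libraries 1, 2 and 3, against 0.346, 0.410 and 0.395 in the GRIK1 siRNA-labelled libraries. Each value of the second group lay above all of the first, NC library 3 included. The log2 difference was 0.49 (exact permutation p = 0.1, the smallest possible, adjusted p = 0.25), and it lay between 0.44 and 0.56 with each library left out in turn. The ratio of CLK1 to CLK4 was 6.44, 6.86 and 5.69 in NC and 6.87, 7.08 and 6.90 in the GRIK1 siRNA-labelled libraries, so the groups were separate by a narrow margin. Its log2 difference was 0.14 (exact permutation p = 0.1, adjusted p = 0.25) and 0.065 without NC library 3.

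For the other 3 pairs, as for CLK1 to CLK4, the difference changed most when NC library 3 was left out. The ratio of CLK1 to CLK2 was 1.10 and 1.11 in NC libraries 1 and 2, 3.03 in NC library 3, and 1.22, 1.33 and 1.39 in the GRIK1 siRNA-labelled libraries. The log2 difference was -0.24 (exact permutation p = 1) and turned to 0.25 without NC library 3, where the smallest possible p is 0.2 and was reached. CLK2 to CLK3 differed by 0.38 (exact permutation p = 0.5) and by 0.045 without NC library 3. SRPK1 to SRPK2 differed by -0.13 (exact permutation p = 0.6) and by 0.018 without it.

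**Figure D3:**
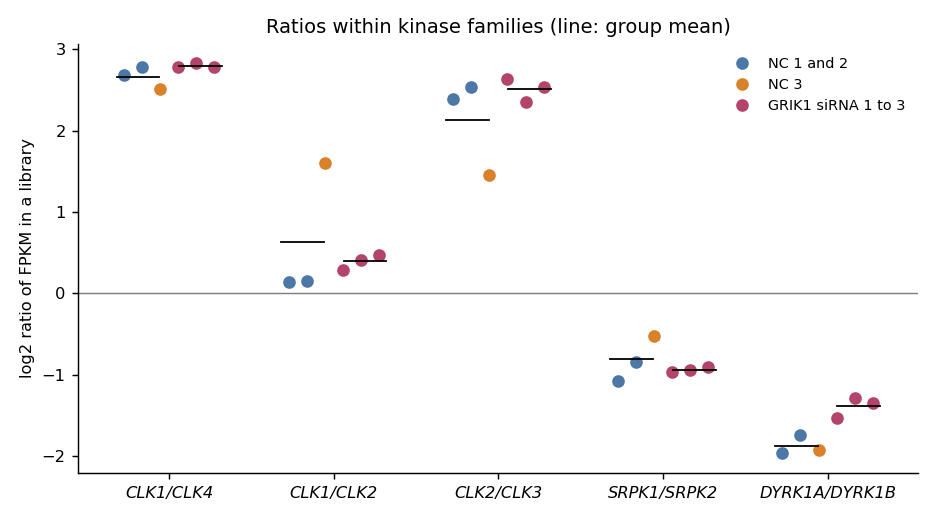
Log2 ratio of the FPKM of 2 kinases in each library (points) with group means (lines), NC libraries 1 and 2 in blue, NC library 3 in orange and the GRIK1 siRNA-labelled libraries in red. The 3 red points lie above all NC points for DYRK1A to DYRK1B, and NC library 3 lies apart for CLK1 to CLK2.

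The 4 CLKs summed to 52.47, 52.02 and 33.94 FPKM in NC libraries 1, 2 and 3, against 59.47, 56.18 and 59.09 FPKM in the GRIK1 siRNA-labelled libraries. CLK1 made up 44.7%, 45.4% and 61.5% of that sum in the NC libraries, against 47.7%, 49.1% and 50.2% in the others. CLK2 made up 40.6%, 41.0% and 20.3% in the NC libraries, against 39.0%, 36.8% and 36.2% in the others. The share of CLK1 was highest and that of CLK2 lowest in NC library 3, where CLK4 held 10.8% and CLK3 7.40%.

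As a level per length of annotated exon, CLK1 had the highest mean over the 6 libraries, 25.6 FPKM, followed by CLK2 with 19.1, SRPK2 with 8.19, DYRK1B with 7.50, SRPK1 with 4.48, CLK4 with 3.85, CLK3 with 3.62 and DYRK1A with 2.44 FPKM. The ranges over libraries overlapped for each pair of neighbours in this order. CLK1 was above CLK2, SRPK1 above CLK4 and CLK3 above DYRK1A in 6 of 6 libraries, whereas CLK4 was above CLK3 in 3 of 6. The exonic size used in FPKM takes in every annotated exon and was 10.7 times the principal transcript for CLK3 and 1.17 times for DYRK1B. When the same whole-gene CPM was divided by the length of the principal transcript alone, CLK3 moved up to the place after CLK1. Reads on other exons stay in that count, so this scale can overstate a gene such as CLK3. CLK3 was above CLK2 there in 3 of 6 libraries. On that scale the order was CLK1 with 69.4, CLK3 with 38.6, CLK2 with 36.2, SRPK2 with 14.1, CLK4 with 11.9, DYRK1B with 8.79, SRPK1 with 6.53 and DYRK1A with 3.72. CLK1 and CLK3 did not overlap in this order, nor did SRPK1 and DYRK1A.

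Several counts share sequence or position with other genes, and whether reads were counted by strand is not given in the sources used here. CLK3 overlaps EDC3 on the opposite strand (355 to 540 counts per library), CLK2 overlaps HCN3 (31 to 93 counts), SRPK1 overlaps LHFPL5 (23 to 44 counts) and SRPK2 overlaps KMT2E (837 to 1785 counts). KMT2E, a chromatin regulator, had a log2 fold change of 0.60 (adjusted p = 0.0831 from edgeR) against 0.020 for SRPK2. Next to DYRK1B, FBL lies 257 bases away and differed by -0.26 (adjusted p = 0.429). The nearest tested gene above CLK2 in coordinates, FDPS of the cholesterol pathway, lay 30257 bases away. Its log2 fold change was -0.60 (adjusted p = 0.0468 from edgeR). That call was lost with the replicate block and with any 1 library other than NC library 3 left out, where 0 genes were called. SCAMP3, on the other side of CLK2 and 438 bases away, differed by -0.098 (adjusted p = 0.647 from edgeR). The pseudogenes CLK2P1, CLK3P2 and SRPK2P had between 0 and 4 counts per library.

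For each kinase the tested gene with the most similar profile was taken as the one with the smallest root mean square difference of centred log2 CPM over the 6 libraries. These were ARRDC4 for CLK1 (0.0230), NPC1 for CLK2 (0.0427), MBTD1 for CLK3 (0.0262) and SLC35E1 for CLK4 (0.0266). For the others they were MFAP3L for SRPK1 (0.0311), NDFIP1 for SRPK2 (0.0287), PEG10 for DYRK1A (0.0390) and ZIC1 for DYRK1B (0.0491). Among the 8 kinases themselves, CLK1 and CLK4 were nearest to each other, at 0.106, and SRPK2 was nearly as close to CLK4, at 0.108. The nearest gene was sought among all tested genes, the kinases included, so no kinase could lie nearer than it. Nothing is read from that difference. NPC1, like CLK2, was low in NC library 3 alone, with 129 normalised CPM there and between 339 and 357 in the other 5.

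The promoters were examined with RefSeq sequences of GRCh38.p14, which gave 18 promoters for the 8 kinases. The letters CCATTTTG, searched on both strands in the 50 bases before to 50 bases after the start, were found in 1 promoter each of CLK1, CLK4, DYRK1A and DYRK1B, thus in 22.2% of the 18 promoters and in 0.703% of all 35116. This motif, which resembles the YY1 site, was chosen after these sequences had been seen, so its count is a description. The promoters of CLK1 (chr2:200864609-200864708, minus strand), CLK4 (chr5:178627001-178627100, minus strand) and DYRK1B (chr19:39834113-39834212, minus strand) are shown because these were the kinases whose groups separated in normalised CPM without NC library 3, with the motif in capitals.
CLK1 promoter: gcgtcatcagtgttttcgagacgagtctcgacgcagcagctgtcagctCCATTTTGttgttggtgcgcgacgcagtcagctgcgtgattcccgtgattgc
CLK4 promoter: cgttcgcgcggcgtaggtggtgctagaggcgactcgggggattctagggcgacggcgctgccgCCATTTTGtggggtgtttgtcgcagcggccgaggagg
DYRK1B promoter: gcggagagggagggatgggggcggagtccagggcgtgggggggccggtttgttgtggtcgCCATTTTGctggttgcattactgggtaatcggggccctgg

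CLK1 and CLK4 lay higher and DYRK1B lower in the GRIK1 siRNA-labelled libraries than in NC libraries 1 and 2. The groups of DYRK1A, which also has a promoter with these letters, overlapped. In FPKM without NC library 3 the groups of SRPK2 separated too, and none of its promoters had these letters. Without that library 56.5% of all tested genes separated in normalised CPM and 56.4% in FPKM. Whether the letters bear on these levels was not tested. Of the other motifs searched over the whole 300 bases, the GC box GGGCGG was present in 11 of the 18 promoters (61.1%), at least 1 for each kinase, and in 45% of all promoters. The E-box CACGTG was in 4 of 18 (22.2%), from CLK2, CLK4, DYRK1A and DYRK1B, and in 7.26% of all. CCAAT was in 4 of 18 (22.2%), from CLK3, DYRK1A and DYRK1B, and in 34.6% of all, and TGACGTCA in 0 of 18 and in 1.85% of all. None of these motifs contains another.

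The genes around these kinases were followed in lists, whose counts stand beside the shares of all tested genes given above: 3.09% passed over 6 libraries, 25.1% had an unadjusted p under 0.05, and 35.2% passed without NC library 3. Of 15 tested kinases of the same or related families, 0 passed the test over 6 libraries and 2 had an unadjusted p under 0.05, with a median log2 fold change of 0.11. The largest differences were in DYRK3, which dissolves nuclear speckles and stress granules (0.50, adjusted p = 0.0852 from edgeR), CDK11B (0.38, 0.371), the transcription kinase CDK13 (0.36, 0.253) and the spliceosomal kinase PRPF4B (-0.25, 0.196). DYRK3 stood at 112, 105 and 137 normalised CPM in NC and at 170, 166 and 165 normalised CPM in the GRIK1 siRNA-labelled libraries. The groups did not overlap, and without NC library 3 the log2 fold change of DYRK3 was 0.62 (adjusted p = 9.31e-08 from edgeR). In that comparison 4 of the 15 passed higher and 2 lower, in all 6 of 15 where 35.2% of all tested genes passed.

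None of the 11 tested SR proteins, the substrates of CLKs and SRPKs, passed over 6 libraries in edgeR, and 0 had an unadjusted p under 0.05. DESeq2 and limma-trend also called 0, where DESeq2 called 11.4% of the genes to which it gave an adjusted p. On log2(FPKM + 1) limma-trend called 407 of the 15870 tested genes. Their median log2 fold change was -0.094, with the largest differences in SRSF11 (0.57, adjusted p = 0.207 from edgeR), SRSF7 (-0.35, 0.216), SRSF3 (-0.31, 0.471) and SRSF6 (0.29, 0.362). SRSF11 was at 698, 676 and 358 normalised CPM in NC and at 835, 864 and 868 normalised CPM in the others. NC library 3 was far below the rest, and the groups did not overlap with or without it. When NC library 3 was left out, SRSF11 passed higher and SRSF5, SRSF7 and SRSF9 passed lower, with a median of 0.0058 over the 11.

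Of 19 tested SR-like substrates and binding partners, 0 passed and 1 had an unadjusted p under 0.05, with a median log2 fold change of 0.13. The differences of THRAP3 (0.41, adjusted p = 0.203 from edgeR), ACIN1 (0.36, 0.339), the speckle scaffold SRRM2 (-0.35, 0.662) and the tri-snRNP protein PRPF6 (0.35, 0.164) were the largest. NC library 3 was the lowest of the 6 libraries for 16 of these 19 genes in normalised CPM, against 35.8% of all tested genes. In FPKM it was the lowest for 17, against 44.4%. SRRM2 was at 23.6% of the other NC libraries there. Without NC library 3 the median was -0.050, and 3 passed higher and 8 lower.

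Transporters, phosphatases and chaperones that move SR proteins or remove their phosphates were mostly high in NC library 3. In normalised CPM it was the highest of the 6 for 9 of 14 and the lowest for 4, against 35.5% and 35.8% of all tested genes. In FPKM it was the highest for 8 and the lowest for 5, against 4249 and 7044 of the 15870 tested genes. None of the 14 passed over 6 libraries in edgeR, 4 had an unadjusted p under 0.05, DESeq2 called 1, where it called 11.4% of the genes to which it gave an adjusted p, and the median log2 fold change was -0.13. The largest differences were in the phosphatase subunit PPP1CC (-0.76, adjusted p = 0.0679 from edgeR), the chaperone HSP90AA1 (-0.74, 0.229), TOP1, a topoisomerase that can also phosphorylate SR proteins (0.49, 0.119), and PPP2CB (-0.45, 0.163). PPP1CC was at 142, 146 and 215 normalised CPM in NC and at 93.9, 106 and 97.8 normalised CPM in the others. Its groups did not overlap, and without NC library 3 PPP1CC fell by 0.54 on the log2 scale (adjusted p = 1.38e-06 from edgeR). In that comparison 4 of 14 passed higher and 5 lower.

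Transcripts known for retained introns, the class to which CLK1 and CLK4 belong, were lowest in NC library 3 for 16 of 16 genes. In normalised CPM 35.8% of all tested genes were lowest there, and 44.4% in FPKM. The 16 stood there at a median of 55.4% of the other NC libraries in normalised CPM, against 96.8% over all tested genes. CLK1 and CLK4 were not low there on that scale, while in FPKM CLK1 was lowest there as well. Of the 16, 5 are also in the lists of SR or SR-like proteins. An annotated transcript of the retained intron class exists for 14, against 46.2% of all protein-coding genes of GENCODE 29. The list was chosen with earlier results of these data known, so these counts are a description. In the test over 6 libraries 1 passed, DDX39A, an RNA helicase of mRNA export, and the median log2 fold change was 0.088. DDX39A was at 74.6, 72.5 and 49.6 normalised CPM in NC and at 126, 116 and 113 normalised CPM in the GRIK1 siRNA-labelled libraries, with no overlap. Its log2 fold change was 0.86 (SE 0.17, adjusted p = 0.0473 from edgeR) and 0.69 without NC library 3 (adjusted p = 1.85e-07). The call of DDX39A was lost in 10 of 17 alternatives, among them the replicate block, robust fitting, limma-trend and leaving out any 1 library other than NC library 3, with adjusted p between 0.0534 and 0.233 in those 10. Without NC library 3 the median of the list was -0.12, with 5 genes passing higher and 8 lower, where 35.2% of all tested genes passed.

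**Figure D4:**
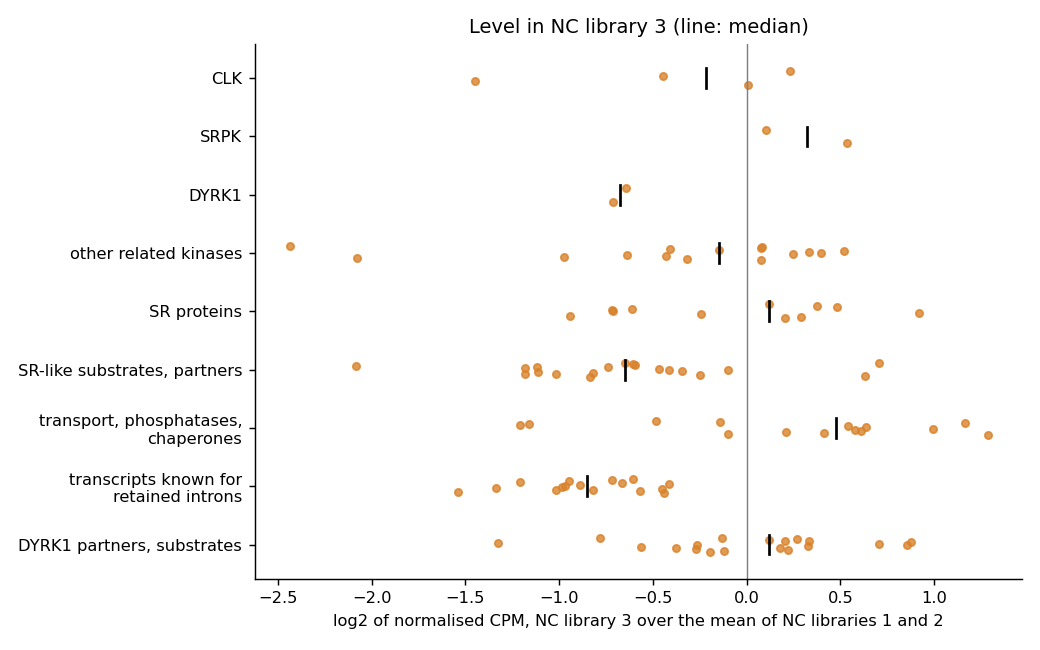
Log2 ratio of normalised CPM in NC library 3 to the mean of NC libraries 1 and 2 for each tested gene of the kinase families and lists (points), with the median of each as a line. All 16 transcripts known for retained introns lie below 0, while CLK1 and CLK4 lie at or above it.

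Of 19 tested partners and substrates of the DYRK1 kinases, 0 passed over 6 libraries in edgeR, 7 had an unadjusted p under 0.05 against 25.1% of all tested genes, and DESeq2 called 4 against 11.4%. Their median log2 fold change was 0.00021. The largest differences were in the transcription factor NFATC4 (-0.66, adjusted p = 0.250 from edgeR), RNF169 (0.58, 0.105), the Hedgehog effector GLI1 (0.57, 0.138) and FAM117B (-0.57, 0.152). With NC library 3 left out, 5 of the 19 passed higher and 5 lower, with a median of 0.030. CCND1, a cyclin that DYRK1 kinases mark for degradation, and the feedback regulator SPRY2 were among those lower, with log2 fold changes of -0.53 and -0.42 there. LIN52, the DREAM subunit, was among the 5 higher, with a log2 fold change of 0.42 there.

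**Figure D5:**
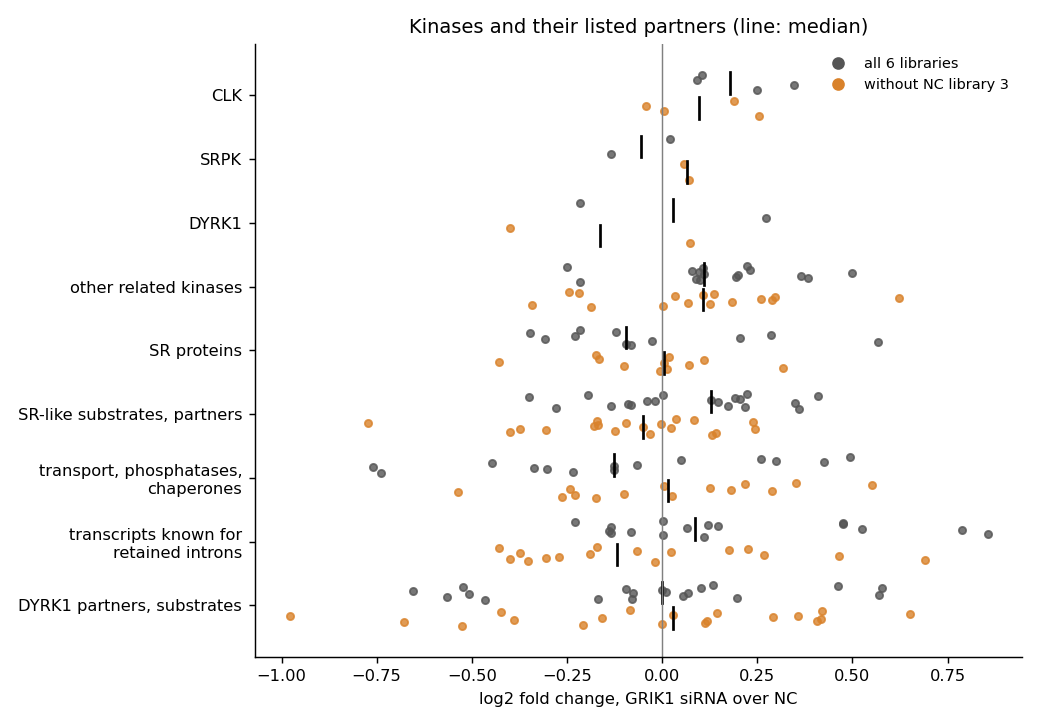
Log2 fold change of each tested gene in the kinase families and lists over all 6 libraries (grey) and without NC library 3 (orange), with the median of each as a line. The medians of the retained intron list go from 0.088 to -0.12 and those of the SR proteins from -0.094 to 0.0058 when NC library 3 is left out.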

How the data were processed

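RNA of 3 NC and 3 GRIK1 siRNA libraries of U87-MG cells was compared. The authors deposited whole-number counts per gene without normalization, and FPKM values derived by the authors from count, library total and exonic size (100% of values matched within 0.00501). The submitters' processing notes name cutadapt 1.9.1, HISAT2, HTSeq and GRCh38, and the strand setting is not given in the sources used here. Files hold 1 count per gene, so isoforms were not analysed here.

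Tested genes had a mean FPKM of 0.5 or more. They were compared with edgeR 4.0.16 (quasi-likelihood, R 4.3.3), TMM scaling and Benjamini-Hochberg adjustment over 15870 genes, with calls at an adjusted p under 0.05. Ratios and GRIK1 used exact permutation tests in scipy 1.17.1. Normalised CPM is the count over the TMM-scaled library total. Alternatives were DESeq2 1.42.0, limma-trend (limma 3.58.1) on log2(FPKM + 1) or log2(FPKM + 0.1), median-of-ratios scaling, other filters, robust fitting, the replicate number as a block, and leaving out each library. Total counts were 11099909 to 14006968, and the intervals of edgeR cover the spread between libraries (common dispersion 0.0391, and 0.00298 without NC library 3), which limits the precision beside depth. On simulated counts with the spread of all 6 libraries, 200 of 15870 genes were changed, and edgeR recovered 55 of 100 changed by 2-fold and 90 of 100 changed by 4-fold, with 6 false calls. The simulation gave every library the same dispersion, set no library apart as NC library 3 is here, and held no change under 2-fold. Its shares therefore do not say how often changes of the size seen in the kinases would be found.

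The 8 kinases and the gene lists were chosen with earlier results of these data known. Named genes were the 8 kinases, GRIK1, genes called in a list (the 4 with the largest absolute log2 fold change where none or more than 4 were called), the gene nearest in profile, and overlapping or neighbouring genes. SRSF5, SRSF9, CCND1, SPRY2 and LIN52 without NC library 3 were described after their values were seen. Exons and introns are from GENCODE 29 and promoters from RefSeq GRCh38.p14.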

Additional observations from a re-analysis of the deposited data

How the results depend on the processing

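Besides leaving out each library, 11 other settings were run, 3 of them (no scaling beyond total counts, filterByExpr, DESeq2 without NC library 3) chosen after the data were seen, as were the alternatives for GRIK1. The sign of the log2 fold change stayed positive for CLK1, CLK2, CLK4 and DYRK1A and negative for DYRK1B in 17 of 17 alternatives. These alternatives reuse the same libraries, so the count of signs is a description. CLK2 was only 0.0052 with edgeR and 0.0071 with DESeq2 without NC library 3, and DYRK1B only -0.033 without NC library 1. The number of kinases called was 0 of 8 except without NC library 3, where it was 2 with edgeR and 2 with DESeq2. In those fits 5591 and 4210 of the 15870 tested genes were called. The sign turned for CLK3 (-0.041 with edgeR and -0.039 with DESeq2) and SRPK1 (0.071 and 0.073) without NC library 3, and for SRPK2 without the filter (-0.0076), without NC library 2 (-0.0020) and without GRIK1 siRNA library 2 (-0.026). With each library left out in turn, CLK3 ranged from -0.041 to 0.21, SRPK1 from -0.27 to 0.071 and SRPK2 from -0.026 to 0.058. The log2 ratios of CLK1 to CLK2 and of SRPK1 to SRPK2 turned without NC library 3, to 0.25 and 0.018, and ranged from -0.48 to 0.25 and from -0.26 to 0.018 with each library left out in turn.

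Over all tested genes, 490 were called, against 1403 without the filter, 1676 with DESeq2, 280 with limma-trend on log2(FPKM + 0.1), 4210 with DESeq2 without NC library 3, and between 0 and 5591 with each library left out. The 5591 was without NC library 3, and leaving out any other library gave 0, with 2238 to 4434 genes at an unadjusted p under 0.05. The labels do not say whether the replicate numbers pair the samples. Correlations of same-numbered deviations from the group means were -0.0703, 0.0441 and -0.0425. The NC mean includes NC library 3, and the deviations of NC libraries 1 and 2 ran alike (-0.0703 and -0.0615 with GRIK1 siRNA library 1). These correlations therefore cannot settle pairing. With the replicate number as a block 0 genes were called, while 3324 had an unadjusted p under 0.05. The cause was not tested.

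With each library left out, calls ranged from 0 to 6 for the related kinases, 0 to 4 for SR proteins, 0 to 11 for SR-like proteins, 0 to 9 for transport and phosphatases, 0 to 13 for retained introns and 0 to 10 for DYRK1 partners. Each upper value was without NC library 3. With DESeq2 without that library the counts were 6, 2, 7, 9, 12 and 9. Related kinases had 1 call with DESeq2, with limma-trend at either pseudocount and without scaling beyond total counts. Transport and phosphatases had 1 without the filter and 1 with DESeq2, and DYRK1 partners had 4 with DESeq2. DDX39A was lost, leaving 0 calls among retained introns, with limma-trend at either pseudocount, robust fitting, the block, no scaling beyond total counts, and without NC library 1, NC library 2 or any 1 GRIK1 siRNA library.

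With the spread between all 6 libraries, 95% intervals of kinases that did not pass reach 1.15 (CLK2) and 0.74 (DYRK1A) on the log2 scale, and without NC library 3 they reach 0.38 (CLK4). In FPKM 3 of 8 kinases had groups that did not overlap, against 1 of 8 in normalised CPM (a comparison chosen after the data were seen).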
